A study of Talinum fruticosum with 24 samples.

Results

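Mock-sprayed leaves of the waterleaf Talinum triangulare, which the sample labels list as Talinum fruticosum, were compared between early and late morning. Of the 24 RNA-seq libraries of the series, 4 belong to this comparison, chosen by their titles alone: 2 from mock leaves harvested 1280 min after the first spray and 2 from mock leaves harvested 40 min after it. The first spray was given 4 h after the lights came on in a 12 h light period. The 1280 min leaves were therefore taken 1.3 h after lights on of the next day, and the 40 min leaves 4.7 h after lights on. The earlier clock time, shortly after dawn, thus belongs to the later harvest.

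All plants were 2 months old and grew at 25 °C by day and 23 °C by night, watered alike so that drought would not induce crassulacean acid metabolism (CAM). No cultivar or genotype is given in the labels. Mature leaves were sprayed with a mock solution of 0.095% methanol and 0.02% Tween-20, per the series' design text (the sample labels give a slightly different methanol percentage), or with the same solution holding 200 µM abscisic acid (ABA). The treated leaves of a plant, 2 in number, were pooled into 1 library, and the 2 libraries of each group came from independent plants. A second spray followed 4 h after the first. The 1280 min mock leaves had thus received 2 sprays, the last of them 17.3 h before harvest, and the 40 min mock leaves 1 spray, 0.667 h before harvest. The harvests were 20.7 h apart, so time of day, elapsed time and number of sprays cannot be told apart in this pair of groups. ABA leaves of the same 2 harvests (4 libraries) and mock leaves of the 80, 160, 320 and 640 min harvests served as comparisons. The 640 min leaves were taken 2.7 h into the night, and the others 5.3, 6.7 and 9.3 h after lights on.

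In plant leaves, a large part of the transcriptome follows the day. The circadian clock, in which morning and evening transcription factors repress each other in turn, sets the phase of many transcripts, and light, sugar and temperature add to it. Waterleaf is a facultative CAM plant: well-watered plants fix carbon by day, and drought or ABA can switch its leaves towards taking up CO2 at night and storing it as malate, which makes the hour of harvest a central variable in work on this species. The deposited feature identifiers are not paired with gene names, so leaf, clock or CAM marker genes were not analysed here and the clock times rest on the labels.

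The mock libraries held 20542923 and 20602478 counts at 1280 min, against 24222536 and 24624505 at 40 min, and the 24 libraries ran from 16577222 to 26846579. The mock libraries detected 18434 and 18456 features at 1280 min and 18512 and 18459 at 40 min, of 20617 features with a count anywhere. Of these, 17561 passed the filter on low counts and were tested. Replicates correlated across features at r = 0.9934 at 1280 min and 0.9907 at 40 min (log2 of CPM plus 1, where CPM are counts scaled to a common library total). Their root-mean-square (RMS) log2 difference was 0.268 at 1280 min and 0.314 at 40 min. Every RMS distance between a 1280 min and a 40 min mock library lay well above that, at 0.870 to 0.919. Among mock harvests, the 1280 min libraries lay nearest to the 40 min libraries, at a mean distance of 0.895. Their mean distance was 1.01 to the 80 min libraries and 1.05 to the 160 min libraries, and it was larger to those of 320 min (1.35) and 640 min (1.29).

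Of the features tested, 8444 (48.1%) differed between the 2 mock harvests by edgeR's quasi-likelihood test at an adjusted p of 0.05, with counts scaled by trimmed mean of M-values (TMM). They divided almost evenly, with 4258 (24.2% of those tested) higher and 4186 (23.8%) lower at 1280 min than at 40 min. The typical called change was close to 2-fold, with a median log2 fold change of 1.08 among the higher and -1.16 among the lower features. At least 2-fold estimates numbered 2358 higher and 2474 lower, and at least 8-fold estimates 213 higher and 234 lower. Over all tested features the median log2 fold change was 0.00, and the middle 50% lay between -0.64 and 0.64.

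Scaling by library size alone in place of TMM called 7985 features (45.5%), 4472 higher (25.5%) and 3513 lower (20.0%). The share of higher features among those called was 50.4% with TMM and 56.0% with library size, and library-size scaling moved the median of all features to 0.09. Between the scalings, 4211 features were called higher in both and 3509 lower in both, and 0 were called in opposite directions. The scalings differ little between these 2 harvests, whose mean TMM factors were 0.748 at 1280 min and 0.706 at 40 min, so opposite calls were hardly possible. Of the features called lower with TMM, 677 were not called with library size.

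A stricter question is which changes exceeded 2-fold beyond their error. By edgeR's glmTreat test against a fold change of 2, 2235 features (12.7%) passed, 1001 higher and 1234 lower at 1280 min. With library-size scaling these were 1106 higher and 1019 lower, so which direction held more of them turned with the scaling. The median standard error (SE) of a log2 fold change was 0.24 over the features tested. Of the 9117 features not called, 4791 had a 95% interval that lay within 2-fold in either direction. For the other 4326 the interval reached past 2-fold, so these data neither call a change nor bound it within that size.

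**Figure D1:**
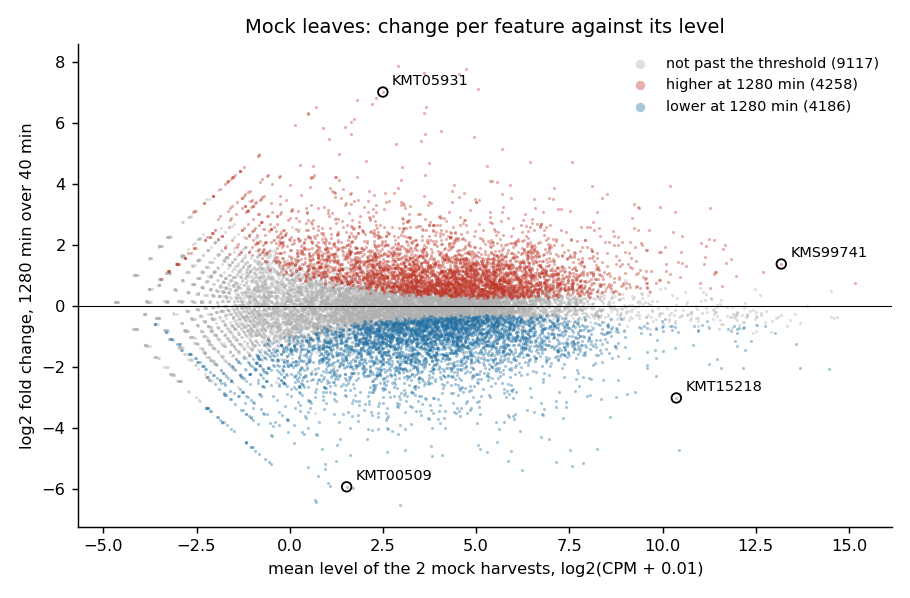
Log2 fold change at 1280 min against 40 min in mock leaves (vertical axis, TMM scaling) against each tested feature's mean level over the 2 harvests (horizontal axis, log2 of CPM plus 0.01). Coloured points mark the 4258 features called higher and the 4186 called lower, grey points the features not called, and the 4 named features are labelled. Among the most abundant features, most points lie below 0, while higher and lower calls are about equally frequent at middle levels.

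Among abundant transcripts, called changes were mostly falls, as few rises were called. Of the 100 features with the highest mean share of counts over the 24 libraries, 5 were higher at 1280 min (log2 fold changes from 0.75 to 1.38) and 27 were lower (from -3.0 to -0.63). These are 5% higher and 27% lower (32% called), beside 24.2% higher and 23.8% lower (48.1% called) over all features tested. The share called lower was thus near that of all features, while the share called higher was smaller. The 68 not called had a median of -0.31, and 61 of them had estimates below 0. Over all 100 the median was -0.37 with TMM and -0.28 with library-size scaling, beside medians of 0.00 and 0.09 over all features. The next 900 features by abundance had 240 higher and 323 lower calls (62.6% called), and ranks 1001 to 5000 had 1249 higher and 1193 lower (61.0% called). Ranks 5001 to 10000 had 1407 higher and 1468 lower (57.5% called), and the 7561 features beyond had 1357 higher and 1175 lower (33.5% called). The last class holds the features with the lowest counts.

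The share of all counts that the 100 most abundant features took was 41.9% and 39.9% in the mock 1280 min libraries, against 52.5% and 47.1% in the mock 40 min libraries. Both 1280 min libraries lay below both 40 min libraries. The means were 40.91% ± 1.46 at 1280 min and 49.78% ± 3.84 at 40 min (SD, n = 2 each), a difference of -8.87 percentage points with a two-sided exact permutation p of 0.333, the smallest that 2 libraries against 2 allow. The 10 most abundant features took 13.53% ± 0.598 at 1280 min and 16.45% ± 0.395 at 40 min (SD, n = 2 each). Across the other mock harvests the top 100 took 45% and 47.8% in the 80 min libraries, 38.2% and 44.2% in those of 160 min, 38.8% and 39.7% in those of 320 min, and 29.6% and 26.5% in those of 640 min. The share was thus lowest in the night harvest, and the early-morning libraries stood between it and the late-morning ones. In ABA leaves it was 28.2% and 18.5% at 1280 min, against 47.0% and 46.2% at 40 min. The Wilson 95% interval of the share, which covers counting error only, was narrow, from 41.92% to 41.97% in mock 1280 min replicate 1 and from 52.48% to 52.52% in mock 40 min replicate 1.

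**Figure D2:**
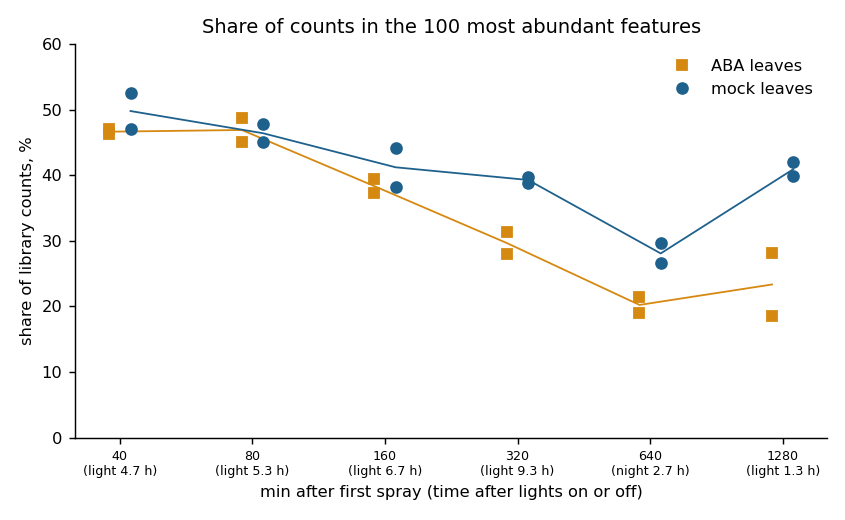
Share of each library's counts in the 100 most abundant features (vertical axis, percent) by harvest (horizontal axis, min after the first spray), with 1 point per library and a line through the mean of each group. Mock leaves at 1280 min (41.9% and 39.9%) lie below mock leaves at 40 min (52.5% and 47.1%), and the mock values are lowest at 640 min.

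Library by library, 4 features were followed, the largest rise and the largest fall by fitted fold change among features with a mean of at least 10 counts, and the same among the 100 most abundant. The fitted value runs past the bound where a harvest has 0 counts, so the rule favours such features. KMS65032, for one, had a measured log2 fold change of -6.51, beyond the bound given below for KMT00509. KMT05931 had 163 and 184 counts in the mock 1280 min libraries, against 0 and 0 counts in the mock 40 min libraries. The feature was thus plainly detected in early morning and in neither late-morning library. Its level was 11.3 ± 0.307 CPM at 1280 min (SD, n = 2), at least 130-fold higher than the limit of 3 counts over the pair of 40 min libraries (edgeR adjusted p = 2.59e-05). The bound is a log2 of 7.02, and it was 6.12 without mock 40 min replicate 1 and 5.91 without mock 40 min replicate 2, since 3 counts then stand against a single library. At the other mock harvests KMT05931 had 15 and 5 counts in the 80 min libraries, 13 and 3 in those of 160 min, 8 and 20 in those of 320 min, and 67 and 105 in those of 640 min. It was low at the harvests from 40 to 320 min and higher in the night library pair before the early-morning harvest.

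KMT00509 went the other way, with 0 and 0 counts in the mock 1280 min libraries, against 60 and 143 in the mock 40 min libraries. Its level at 40 min was 5.74 ± 2.81 CPM (SD, n = 2), and at 1280 min it was at least 60.4-fold lower (log2 -5.92, edgeR adjusted p = 1.97e-06). The log2 bound was -4.97 without mock 1280 min replicate 1, -4.85 without mock 1280 min replicate 2 and -5.27 without mock 40 min replicate 2. KMT00509 had 61 and 123 counts in the 80 min libraries, 14 and 29 in those of 160 min, 8 and 10 in those of 320 min, and 5 and 19 in those of 640 min. Its counts thus went down over the day after the 80 min harvest, and it was found in all other mock libraries.

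Among the abundant features, KMS99741 reached 13500 and 13300 CPM in the mock 1280 min libraries, against 4910 and 5390 CPM in the mock 40 min libraries. That is 13400 ± 145 CPM at 1280 min and 5150 ± 338 CPM at 40 min (SD, n = 2 each), a log2 fold change of 1.38 with an SE of 0.24 (edgeR adjusted p = 0.000131). Single libraries devoted 0.972% and 1.04% of all counts to it at 1280 min, and 0.324% and 0.405% at 40 min. The level was 4460 and 4340 CPM in the 80 min libraries, 3070 and 2220 in those of 160 min, 1260 and 1170 in those of 320 min, and 1190 and 1430 in those of 640 min. The early-morning level of KMS99741 was thus above that of every other mock library, and the levels at the light-period harvests stepped down from 40 to 320 min.

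KMT15218 had 310 and 276 CPM in the mock 1280 min libraries, against 2110 and 2590 CPM in the mock 40 min libraries. The means were 293 ± 24.1 CPM at 1280 min and 2350 ± 341 CPM at 40 min (SD, n = 2 each), an 8.02-fold lower level (log2 -3.0 ± 0.23, SE; edgeR adjusted p = 1.03e-08). It had 3160 and 3430 CPM in the 80 min libraries, 3150 and 2850 in those of 160 min, 2680 and 2560 in those of 320 min, and 1470 and 1420 in those of 640 min. Both early-morning libraries lay under every other mock library, with the night libraries next. Library-size scaling left the mock log2 fold changes of the 4 features at 7.10 (a bound) for KMT05931, -5.83 (a bound) for KMT00509, 1.46 for KMS99741 and -2.93 for KMT15218.

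**Figure D3:**
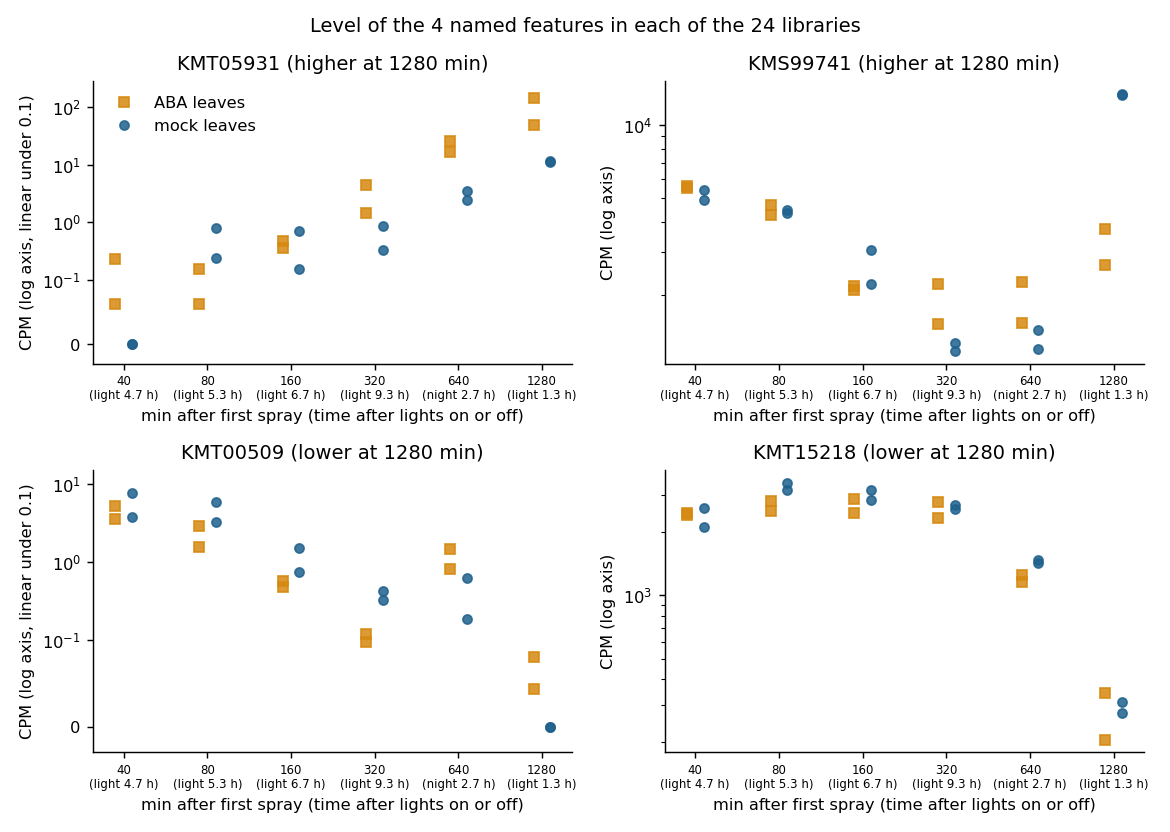
Level of the 4 named features in CPM (vertical axes, log scale, linear near 0 for the features with counts of 0) in every library by harvest (horizontal axes, min after the first spray), with ABA and mock leaves in separate colours. Mock leaves show high KMT05931 and KMS99741 and low KMT00509 and KMT15218 at 1280 min, and the ABA libraries depart from this for KMS99741.

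Complete presence or absence was rare. Features with 0 counts in both libraries of one harvest and at least 10 in each library of the other numbered 11 for 1280 min and 8 for 40 min. The 11 found only at 1280 min summed to between 22 and 347 counts over that pair of libraries (median 30), and the 8 found only at 40 min to between 26 and 203 (median 49.5). These are low counts, and a count of 0 in both libraries allows up to 3 counts over the pair. With a minimum of 5 counts the numbers were 18 for 1280 min and 29 for 40 min, and with a minimum of 20 they were 3 and 3. They were 16 for 1280 min and 28 for 40 min without mock 1280 min replicate 1, and 16 and 26 without mock 1280 min replicate 2. Leaving out mock 40 min replicate 1 gave 29 for 1280 min and 15 for 40 min, and leaving out mock 40 min replicate 2 gave 20 and 14. Most of these features were seen at other hours: of the 11 for 1280 min, 8 had counts in both mock libraries at 640 min and 4 in both at 80 min, and of the 8 for 40 min, 7 had counts in both at 640 min and all 8 in both at 80 min.

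The mock harvests between these times, which the calls did not use on their own, give the course of the called features. Along this course time of day, elapsed time and number of sprays cannot be told apart, since the second spray came between 160 and 320 min. In the following, each level is a log2(CPM + 1) relative to the feature's own mean over the 6 mock harvests. The median of the 4258 features called higher was, in order from the 40 min to the 1280 min harvest, -0.14, -0.19, -0.14, -0.28, 0.00 and 0.76 with TMM. That of the 4186 called lower was, in the same order, 0.15, 0.20, 0.14, 0.31, -0.02 and -0.76. With TMM scaling both sets therefore stayed close to their 40 min level through the light period, lay near their own mean at night, and departed at 1280 min. The calls set the order of the 40 and 1280 min levels and favour a departure at 1280 min in advance. They do not set the side of 0 at 40 min. Each feature's own mean includes 1280 min, so a departure there also moves its levels at the other harvests the opposite way.

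The harvest of the extreme level shows the same features one by one. With TMM, 3367 of the features called higher (79.1%) had their highest mock level at 1280 min and 653 (15.3%) at 640 min. Of those called lower, 3312 (79.1%) had their lowest level at 1280 min. Over all features tested, the called ones included, 29.9% were highest and 29.7% lowest at 1280 min. Among those not called these shares were 20.6% and 20.9%. Calling on 1280 against 40 min favours 1280 min as the extreme in advance, and 0 features called higher were highest at 40 min. The shares at 1280 min are therefore no separate support for the calls. For the features called lower, the highest level came at 320 min in 1700 (40.6%), at 80 min in 20.4% and at 40 min in 17.7%. The lowest level of the features called higher came at 320 min in 1324 (31.1%) and at 40 min in 20.5%. With TMM the 320 min harvest was thus the most frequent opposite extreme in both sets, which did not hold with library-size scaling.

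Scaling changed this picture more than it changed the calls. TMM factors were 0.718 and 0.778 in mock 1280 min libraries and 0.660 and 0.752 in mock 40 min libraries, and reached 1.70 elsewhere in the series. The sets here are still those called with TMM, and only their levels were rescaled. With library-size scaling the features called higher had medians of -0.45, -0.36, -0.02, -0.15, 0.50 and 0.48 from 40 to 1280 min. The night level of these features was thus as high as their early-morning level. They were highest at 640 min in 2027 cases (47.6%) and at 1280 min in 2005 (47.1%), and were lowest most often at 40 min (1902, 44.7%, against 22.4% at 320 min). The features called lower had medians of -0.21, 0.00, 0.27, 0.46, 0.50 and -1.01, and 3806 (90.9%) were lowest at 1280 min. Their highest level came most often at 640 min (1717, 41%), with 31.2% at 320 min. Over all features tested, library-size scaling put 54.4% of the highest levels at 640 min and 36.5% of the lowest at 1280 min. Low early-morning levels of the features called lower, which the calls favour in advance, were thus seen with both scalings. Whether the features called higher peaked at 1280 min or shared a peak with the night depended on the scaling.

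**Figure D4:**
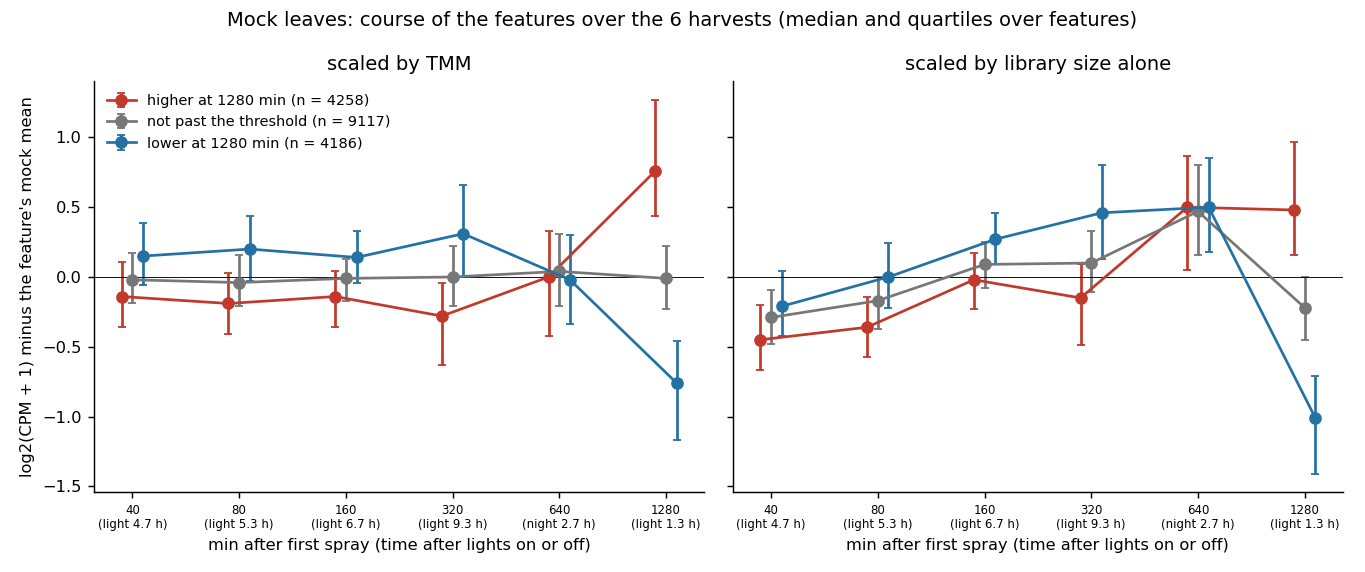
Median level of the features called higher, called lower and not called at the 6 mock harvests (horizontal axis, min after the first spray), as log2 relative to each feature's own mean (vertical axis), with TMM scaling in one panel and library-size scaling in the other. Both panels show the sets called with TMM. Error bars span the middle 50% of features. With TMM the higher set lies at 0.00 at 640 min and 0.76 at 1280 min, and with library size at 0.50 and 0.48.

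The course of the 100 most abundant features also turned on the scaling. With TMM, 79 of them were highest at 40 min and 78 lowest at 640 min, and their median level was, from the first to the last harvest, 0.65, 0.33, -0.25, -0.27, -0.51 and 0.30. With library size, 29 were highest at 40 min and 40 lowest at 640 min, and the medians were 0.24, 0.12, -0.09, -0.10, 0.10 and -0.02 in the same order. A median above 0 at 40 and 80 min and below 0 at 160 and 320 min was seen with both scalings, whereas the low median at 640 min and the higher one at 1280 min were seen with TMM and not with library size.

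A further 2 pairs of mock harvests share no library with the morning comparison, though all share the estimate of spread. In each pair the second spray fell between the harvests: 80 and 160 min came before it, 320 and 640 min after it. Time of day, elapsed time and number of sprays thus cannot be told apart in these pairs either. Afternoon against late morning (320 against 80 min) called 7998 features (45.5%), 4034 higher (23.0%) and 3964 lower (22.6%). Of the features called higher in early morning, 779 (18.3%) were higher and 1358 (31.9%) lower at 320 min than at 80 min, the median being -0.13. Of those called lower in early morning, 1362 (32.5%) were higher and 923 (22.0%) lower, the median being 0.14. The features that were high in early morning thus leaned downwards between 80 and 320 min, and those that were low leaned upwards, beside a median of 0.03 over all features.

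That lean is relative to the other features. Library-size scaling called 6838 features higher (38.9%) and 2236 lower (12.7%) at 320 against 80 min, 75.4% of the calls being higher, against 50.4% with TMM, and moved the median of all features to 0.41. The features called higher in early morning with that scaling then had a median of 0.26, with 33.9% higher and 18.5% lower. Those called lower had a median of 0.55, with 51.7% higher and 13% lower. Below and above the median of all features, the 2 sets kept the same order as with TMM, while the sign of the median turned for the first set.

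Night against midday (640 against 160 min) called 6623 features (37.7%), 3407 higher (19.4%) and 3216 lower (18.3%). Here the features called higher in early morning had 1195 higher (28.1%) and 849 lower (19.9%), with a median of 0.14. Those called lower had 581 higher (13.9%) and 1197 lower (28.6%), with a median of -0.16. The lean at night was thus in the same direction as in early morning, opposite to that of the afternoon. With library size, 6854 features were higher (39.0%) and 1455 lower (8.29%), 82.5% of the calls being higher, against 51.4% with TMM, and the median of all features was 0.47. The set called higher in early morning then had a median of 0.59 with 49.8% higher, and the set called lower a median of 0.27 with 30.6% higher, the same order about that shifted median.

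ABA leaves give the same pair of clock times in other plants. ABA leaves at 1280 min against ABA leaves at 40 min had 9618 features called (54.8%), 4754 higher (27.1%) and 4864 lower (27.7%). Of the 4258 features higher in mock leaves, 2500 were also higher in ABA leaves, which is 58.7% of the mock set and 52.6% of the ABA set, and 387 (9.09%) were lower, the median of the set in ABA leaves being 0.72. Of the 4186 lower in mock leaves, 2740 were also lower in ABA leaves, 65.5% of the mock set and 56.3% of the ABA set, and 208 (4.97%) were higher, with a median of -0.84. Of the 1001 past 2-fold and higher in mock leaves, 734 (73.3%) were higher in ABA leaves and 43 lower, and of the 1234 past 2-fold and lower, 1075 (87.1%) were lower and 11 higher. Among the 9117 features not called in mock leaves, 2046 were higher and 1737 lower in ABA leaves.

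The balance between directions in ABA leaves depended on the scaling. With library size, 8778 features were higher (50%) and 2191 lower (12.5%), 80.0% of the calls being higher, against 49.4% with TMM, and the median of all features moved to 0.66. Of the 4472 features higher in mock leaves with that scaling, 3594 (80.4%) were higher and 132 lower in ABA leaves. Of the 3513 lower in mock leaves, 1286 (36.6%) were lower and 499 (14.2%) higher. Against the shifted median of 0.66 the medians of these sets were 1.34 for the first and -0.29 for the second, so each set kept its side of the median under both scalings. The smaller share of counts in abundant features in ABA leaves at 1280 min, given above, moves with this shift, and its part in these counts was not tested.

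**Figure D5:**
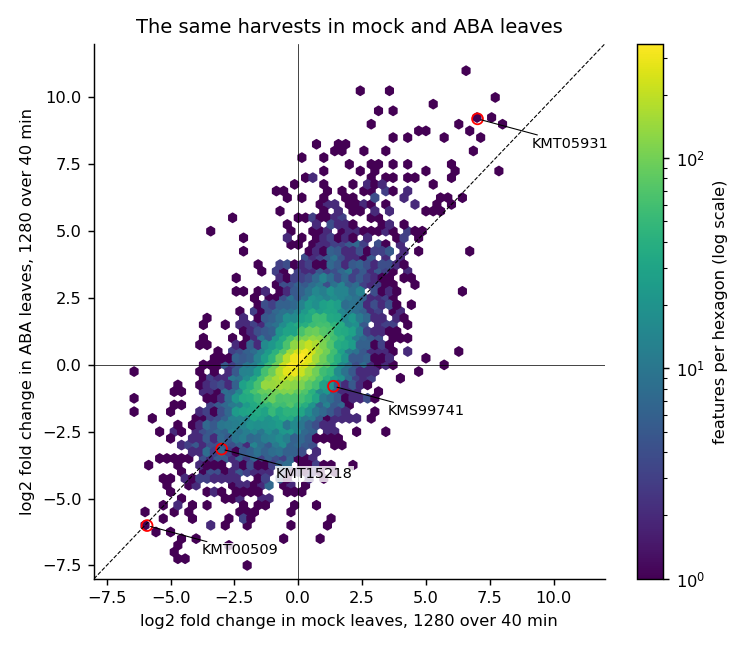
Log2 fold change at 1280 min against 40 min in ABA leaves (vertical axis) against that in mock leaves (horizontal axis) for each tested feature, TMM scaling, with colour for the number of features per hexagon on a log scale. The 84 features at or under 3 counts in each pair of libraries of either treatment are left out. The dashed line marks equal changes, KMT15218 has nearly equal values on both axes, and KMS99741 lies to the right of 0 in mock leaves and below 0 in ABA leaves.

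The difference between treatments was itself tested. The 1280 against 40 min change differed between ABA and mock leaves for 5001 features (28.5%), being greater in ABA leaves for 2320 and smaller for 2681. With library-size scaling 7328 features (41.7%) differed, 6012 greater and 1316 smaller in ABA leaves, so 82.0% were greater, against 46.4% with TMM. The median difference over all features was 0.64 with library size and 0.06 with TMM.

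The 4 named features show the range of outcomes. KMT15218 had 206 and 343 CPM in ABA 1280 min libraries, against 2450 and 2410 CPM in ABA 40 min libraries. Its log2 fold change was -3.15 ± 0.23 in ABA leaves (SE, edgeR adjusted p = 2.55e-09; -2.46 with library-size scaling), and its difference from the mock change was -0.14 ± 0.30 (edgeR adjusted p = 0.764). The fall of KMT15218 in early morning was thus present in both treatments, and no difference between them was detectable. The sign of that small difference turned with library-size scaling, where it was 0.47.

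KMT05931 had 1180 and 3187 counts in ABA 1280 min libraries, against 1 and 4 counts in ABA 40 min libraries, or 47.7 and 139 CPM at 1280 min and 0.0636 and 0.235 CPM at 40 min. It rose in ABA leaves as in mock leaves, the log2 fold change being 9.20 with an SE of 0.86 (edgeR adjusted p = 3.69e-07). With 1 to 4 counts per library at 40 min its size is loosely known: it was 8.24 without ABA 1280 min replicate 2, 10.4 without ABA 40 min replicate 2, 8.60 without ABA 40 min replicate 1, and 9.89 with library-size scaling. The test of a difference from mock leaves gave an edgeR adjusted p of 0.75, with 0 counts in both mock 40 min libraries. Both ABA 1280 min libraries lay above both mock 1280 min libraries, which had 11.1 and 11.5 CPM.

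KMT00509 had 2 and 1 counts in ABA 1280 min libraries, against 56 and 89 in ABA 40 min libraries. The ratio of levels was 0.0142, with a 95% counting interval from 0.0029 to 0.0424 (edgeR adjusted p = 2.44e-06). It was thus near or at 0 counts in early morning in all 4 plants of both treatments, and present in all 4 plants in late morning. The test of a difference between treatments gave an edgeR adjusted p of 0.28.

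KMS99741 did not follow the mock pattern in ABA leaves. It had 3730 and 2660 CPM in ABA 1280 min libraries, against 5630 and 5520 CPM in ABA 40 min libraries. Both ABA 1280 min libraries lay below both ABA 40 min libraries, whereas in mock leaves both 1280 min libraries lay above. The ABA change was -0.80 ± 0.24 on the log2 scale (SE, edgeR adjusted p = 0.00873), but this call was lost with library-size scaling (-0.16, adjusted p = 0.602), without ABA 1280 min replicate 2 (-0.58, adjusted p = 0.0944) and in a fit of the compared libraries alone (-0.79, adjusted p = 0.10). The difference between treatments was -2.19 ± 0.34 (SE, edgeR adjusted p = 0.000111) and -1.62 with library-size scaling (adjusted p = 0.00142). The early-morning rise of KMS99741 was therefore called in mock leaves and differed from the ABA change under both scalings.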

How the data were processed

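Leaf mRNA was sequenced in 24 libraries (stranded TruSeq kit, single reads of 150 bp, 12 samples per lane, per the labels' protocols). The labels do not say which libraries shared a lane, and batches were not examined. The authors deposited raw counts of reads for each feature, as whole numbers without normalisation. Features absent from a library's list were taken as 0. Tools named, per the submitters' processing notes, are CASAVA, Trimmomatic and DESeq2, with no version. Aligner, counter, reference, use of strand and handling of reads with several matches: not given in the sources used here. Near-identical or overlapping features may therefore share or split their reads. Sample labels are those that the submitters corrected in the series record.

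Counts were analysed with edgeR 4.0.16 and limma 3.58.1 in R 4.3.3. The expression filter by group (minimum count 10) kept 17561 features and removed 3056. A robust quasi-likelihood model with TMM factors and 1 mean for each of the 12 groups was fitted to all 24 libraries (12 residual degrees of freedom, common biological coefficient of variation 15.7%). Tests were two-sided with Benjamini-Hochberg adjustment over all tested features and a threshold of 0.05. SEs were derived from each log2 fold change and its F statistic, as their size over the root of F. CPM values use TMM-scaled library sizes, and course levels and distances are log2(CPM + 1). A fold against a group at 0 counts was computed against 3 counts over that group and is a bound. Floors and intervals cover counting error only. The model steps were tested on simulated counts.

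Replicates differed by more than sampling noise in every group (chi-square per degree of freedom at least 5.433), so all were kept. Replicate numbers are not said to pair plants, so the main model has no replicate block. Deviations of same-numbered libraries correlated from -0.425 to 0.387 over 66 pairs of groups, with 14 pairs over 0.1, which does not settle the matter. Alternatives were other scalings, filters and thresholds, DESeq2 1.42.0, other sets of libraries, a replicate block and leaving out each library.

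Named features are, in each direction, the called feature with the largest fitted log2 fold change among those averaging 10 counts or more over all 24 libraries, and the same among the 100 most abundant, with both libraries of one harvest above both of the other. The comparison, lists and rules were chosen with earlier results of these data known. Lists of clock, starch, carboxylation and malate, and light-harvesting genes matched no identifier, and results planned for them were not run.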

Additional observations from a re-analysis of the deposited data

Results flagged for a closer look

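The change from 40 to 1280 min differed between ABA and mock leaves, by edgeR's test of the difference itself, for 5001 features with TMM scaling. Among the named features, KMS99741 stood out in that test. Its 1280 against 40 min change was lower in ABA leaves than in mock leaves by a log2 difference of -2.19 ± 0.34 (SE, edgeR adjusted p = 0.000111). Its levels were 3190 ± 760 CPM in ABA leaves at 1280 min and 5570 ± 73.3 CPM in ABA leaves at 40 min, and 13400 ± 145 CPM in mock leaves at 1280 min and 5150 ± 338 CPM in mock leaves at 40 min (SD, n = 2 each).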

How the results depend on the processing

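The mock 1280 against 40 min count of 8444 lay between 6297 (threshold of 0.01) and 8757 (compared libraries only) over its 15 alternatives, and between 6679 and 7007 without 1 library. The 4 named features kept their direction in mock leaves in all 15. They were picked for large called changes in these same libraries, which favours that outcome in advance, so it is no separate support. Past 2-fold, 2235 features became 1435 with DESeq2 and 1624 to 1847 without 1 library. The difference between treatments, 5001 features, became 3145 at a threshold of 0.01 and 3873 to 5732 without 1 library. Without 1 library, ABA leaves had 7849 to 8995 calls, 640 against 160 min 4594 to 5461, and 320 against 80 min 6095 to 7631. The share of abundant features differed by -4.57 points for the top 1000 and by -11.6 to -6.15 without 1 library. Features found at one harvest only numbered 18 (minimum of 5), 3 (minimum of 20) and 16 to 29 (without 1 library) for 1280 min, and 29, 3 and 14 to 28 for 40 min. The difference between treatments for KMT15218, not called anywhere, turned sign with library-size scaling (0.47) and without ABA 1280 min replicate 1 (0.18), was 0.00 without mock 40 min replicate 1, and ran from -0.55 to 0.18 without 1 library. The cause was not tested.

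With the replicate block, 8396 features were called in mock leaves (8725 in the compared libraries only). The numbers are not said to pair plants (same-numbered deviations r = 0.033 for this pair of groups), so the block is given only as a value. It gave 4929 calls (4009 in the compared libraries only) for the difference between treatments, 2229 (2478) past 2-fold, 9589 (7824) in ABA leaves, 6541 (5485) for 640 against 160 min and 7904 (7221) for 320 against 80 min. Crossed numbers, tried after seeing negative correlations of -0.137 and -0.188, gave 6977 and 8150 calls in these last pairs. The block in the compared libraries only ended the ABA call of KMS99741 (-0.82, edgeR adjusted p = 0.161).

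With 2 plants per group, p-values rest on a spread estimated over all 12 groups. If mock libraries at 1280 and 40 min vary more than the others, their p-values are too small. The chi-square per degree of freedom between replicates was 87.48 at mock 40 min and 10.03 at mock 1280 min, in a range from 5.433 to 93.25 over the 12 groups. The RMS log2 differences of these mock replicates, 0.314 and 0.268, lay inside a range from 0.202 to 0.464. The exact permutation test cannot go below 0.333.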
